A study of Mus musculus with 47 samples.

Results

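The inguinal fat pad of female mice holds part of the mammary gland, and the 24 female pads of the series were divided by how much epithelial keratin mRNA each contained. For every array the deposited log ratio of the 3 spots for Krt8 and Krt18 (2 and 1 spots) was averaged, and the 12 pads with the highest average were set against the 12 with the lowest, so that the pads were chosen by their own Krt8 and Krt18 values. The 24 pads are part of 47 arrays in all, the other 23 being pads of males, which took no part in the choice. Each array compares Cy5-labeled RNA from 1 mouse with a Cy3-labeled pool made from all mice, so that every value below is a log2 ratio of a mouse to the pool.

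The mice, with the strain given as C57/BL6;129Svj background, lacked the β-carotene cleaving enzyme Bcmo1 in all tissues (Bcmo1-null) or were wild-type (WT) mice of an F1 generation of mixed background. From 5 weeks of age they ate a pelleted diet with 1500 IU vitamin A/kg, either without β-carotene (control diet) or with 150 mg β-carotene/kg (BC diet), for 14 weeks, and were 19 weeks old when the inguinal adipose tissue was taken. Each of the 8 groups held 6 mice, except WT males on the BC diet with 5. Before 5 weeks all mice received the same breeder chow. The Bcmo1 probe could not be used to check the genotypes, since it was well above background on only 4 of 12 WT and 5 of 12 Bcmo1-null female arrays and ranged from -0.25 to 0.47 in the former and from -0.05 to 0.31 in the latter.

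A mammary duct has an inner layer of luminal cells, which contain the paired keratins Krt8 and Krt18 and make milk, and an outer layer of basal cells, which contract. Estrogen, progesterone and prolactin act on part of the luminal cells, which pass the signal on to their neighbours through secreted factors such as amphiregulin (Areg) and Wnt4. In a virgin female the ducts lie embedded in fat, and an inguinal pad can also hold a lymph node, and skin or muscle may be taken along in dissection. In such bulk tissue, fewer epithelial cells and less RNA per epithelial cell cannot be told apart.

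The promoters of the 2 keratins that made the choice are shown with those of Krt7 and Epcam, another keratin and an adhesion protein of simple epithelia whose levels followed them, to let the windows be compared. Each window runs from 250 bases before to 50 bases after the RefSeq start (build GRCm38.p6; Krt8 chr15:102004293-102004592, minus strand; Krt18 chr15:102027966-102028265, plus strand; Krt7 chr15:101412153-101412452, plus strand; Epcam chr17:87635729-87636028, plus strand). Capitals mark CAGGTG, an E-box that the repressors Snai1, Snai2 and Zeb1 can bind, and GGGCGG, the GC box of Sp1, both searched on either strand, so that they also appear as CACCTG and CCGCCC.
Krt8: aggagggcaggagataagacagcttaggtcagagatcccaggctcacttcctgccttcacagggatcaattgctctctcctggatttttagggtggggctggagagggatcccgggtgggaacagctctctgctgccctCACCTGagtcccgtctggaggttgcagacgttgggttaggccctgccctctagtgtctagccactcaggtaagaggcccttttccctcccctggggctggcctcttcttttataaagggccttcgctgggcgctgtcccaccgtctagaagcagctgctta
Krt18: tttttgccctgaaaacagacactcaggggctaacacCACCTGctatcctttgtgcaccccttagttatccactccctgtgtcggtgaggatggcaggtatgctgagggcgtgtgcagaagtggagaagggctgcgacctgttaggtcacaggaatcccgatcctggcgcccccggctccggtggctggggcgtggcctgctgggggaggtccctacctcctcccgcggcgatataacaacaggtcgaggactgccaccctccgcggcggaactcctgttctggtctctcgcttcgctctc
Krt7: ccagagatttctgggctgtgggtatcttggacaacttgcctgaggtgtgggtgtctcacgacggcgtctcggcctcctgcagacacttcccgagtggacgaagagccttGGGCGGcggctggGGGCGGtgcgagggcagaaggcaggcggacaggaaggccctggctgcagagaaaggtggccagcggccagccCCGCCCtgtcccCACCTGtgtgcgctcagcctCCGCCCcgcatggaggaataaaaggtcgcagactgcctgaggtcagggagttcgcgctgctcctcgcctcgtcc
Epcam: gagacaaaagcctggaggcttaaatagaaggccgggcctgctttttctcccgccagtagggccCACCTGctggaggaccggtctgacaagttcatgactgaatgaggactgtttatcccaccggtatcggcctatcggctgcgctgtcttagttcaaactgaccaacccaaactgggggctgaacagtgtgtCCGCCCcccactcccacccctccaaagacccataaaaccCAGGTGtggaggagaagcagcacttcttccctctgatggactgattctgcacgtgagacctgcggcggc
The E-box occurred once in the windows of Krt8, Krt18 and Krt7 and 2 times in that of Epcam, and 20.2% of all 32851 promoter windows held it. The GC box was found 4 times in Krt7 and once in Epcam, in neither Krt8 nor Krt18, and in 35.7% of all windows.

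The keratin score did not divide the pads into a rich and a poor kind. The 12 high-keratin pads had scores of 0.79 to 1.98, with a median of 1.10, and the 12 low-keratin pads had scores of -2.92 to 0.79, with a median of 0.56. At the border the last high-keratin pad (Bcmo1-null, control diet, replicate 2) had 0.794 and the first low-keratin pad (WT, control diet, replicate 3) 0.788, and the next 4 pads followed between 0.72 and 0.76. Of the low-keratin pads 11 lay between -0.19 and 0.79, and 1, of a Bcmo1-null female on the control diet (replicate 1), stood apart at -2.92. The 23 male pads had -4.73 to -4.01. These scores chose the pads and are given as a description. The pads are therefore called high- and low-keratin below, since 11 of the 12 pads labelled poor had keratin levels far above those of males.

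**Figure D1:**
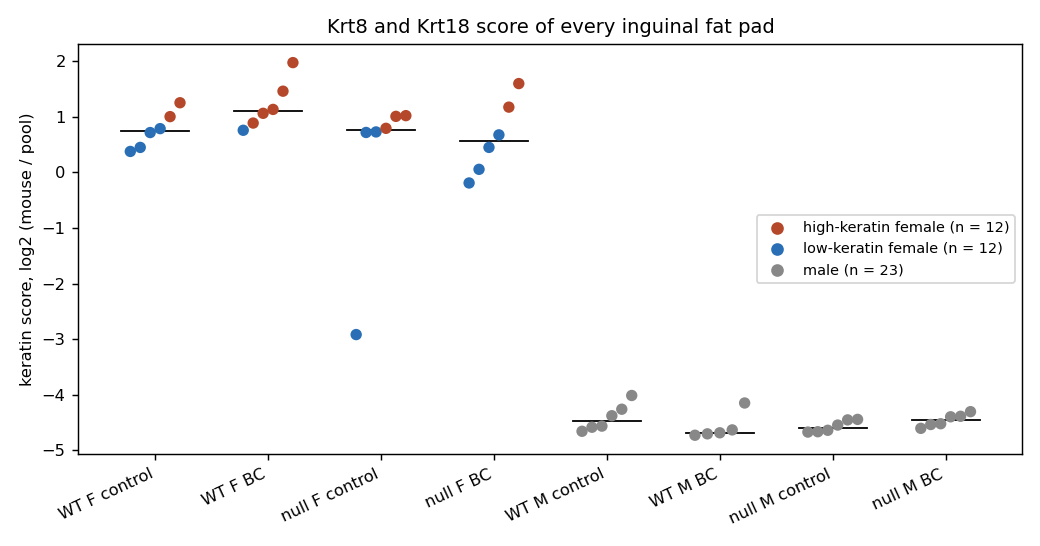
The keratin score of each pad (log2 ratio of mouse to pool, mean of 3 spots) by sex, genotype and diet (F, female; M, male; null, Bcmo1-null), with a black line at each group's median. High- and low-keratin females meet at 0.79 without a gap, 1 low-keratin pad lies at -2.92, and all males lie below -4.

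Both classes held pads of every group, in unequal numbers. WT females gave 2 high- and 4 low-keratin pads on the control diet and 5 and 1 on the BC diet. Bcmo1-null females gave 3 and 3 on the control diet and 2 and 4 on the BC diet. The genotype-diet group was therefore a term of the fits below, apart from the methods' t-test. The median score was 0.75 and 1.10 in WT females on the control and BC diets, and 0.76 and 0.56 in Bcmo1-null females. The ranges of the 4 groups overlapped, at 0.38 to 1.25, 0.76 to 1.98, -2.92 to 1.02 and -0.19 to 1.60.

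The median Cy5 signal was 144 to 277 in high- and 136 to 237 in low-keratin pads, and the share of spots well above background lay between 47.3% and 70.5% over all 47 arrays. The females lay on 8 of 12 slides, of which 6 held pads of both classes.

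The first question was which genes other than the keratins differed between high- and low-keratin pads. Of 20808 probes, 0 passed an adjusted p of 0.05 (limma, Benjamini-Hochberg; 0% called, smallest adjusted p 0.193), and 357 (1.72%) had an unadjusted p under 0.01, of which 173 were higher and 184 lower in high-keratin pads. By the methods' t-test, without covariates, 0 probes passed after adjustment and 810 the unadjusted threshold. The split of the 357 depended on the scaling and was 140 higher against 39 lower after median centring, 153 against 97 without background correction and 149 against 86 with the deposited log ratios. The tests compare other genes on the same 24 arrays that gave the keratin score, and do not use a second measurement of these tissues.

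Genes of luminal and general epithelium were nearly all positive, though none passed the adjusted test. Of 68 listed genes 61 were tested, 56 were positive and 5 negative, and the median difference was 0.32, against -0.01 and 47.3% positive over all 13144 genes with a symbol. At the unadjusted threshold of 0.01, 5 of the 61 were higher and 0 lower, where 0.831% of all probes were higher. Without the pad at -2.92, 53 of 61 were positive, with a median of 0.23, and 3 passed that threshold.

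Crb3, which helps to set up the apical side of epithelial cells, had the smallest p of the list. Its levels ran from 0.18 over a median of 0.60 to 1.49 in high-keratin pads, and from -0.39 over 0.33 to 0.50 in low-keratin pads. Most high-keratin pads lay above the low-keratin median, but the classes overlapped, and the difference in the fit was 0.57 ± 0.14 (SE, n = 12 and 12, unadjusted p = 0.00051, adjusted p = 0.37, limma). Foxa1, a partner of the estrogen receptor on chromatin, had a difference of 0.52, Rbm35b (Esrp2), an epithelial splicing regulator, of 0.60, the keratin Krt7 of 0.68 and the tight-junction protein Cldn4 of 0.53. They were the other 4 genes with an unadjusted p under 0.01, and their adjusted p-values were 0.503 to 0.555.

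Krt19, a keratin without a tail domain that luminal cells share with Krt8 and Krt18, had 0.62, 1.07 and 2.20 as lowest, median and highest level in high-keratin pads. In low-keratin pads the same levels were -2.64, 0.56 and 0.88, and without the pad at -2.92 the lowest was -0.03. The difference was 0.87 ± 0.32, and 0.55 without that pad. Cdh1, the cadherin that holds epithelial cells together, had a median of 0.92 (0.14 to 1.83) in high- and 0.46 (-1.78 to 1.20) in low-keratin pads. Tacstd1, the array's name for Epcam, had a median of 0.94 (0.33 to 2.37) and 0.59 (-1.91 to 1.05). In all 3 genes the pad at -2.92 was the lowest of the 24 females, and the other low-keratin pads overlapped the high-keratin pads.

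**Figure D2:**
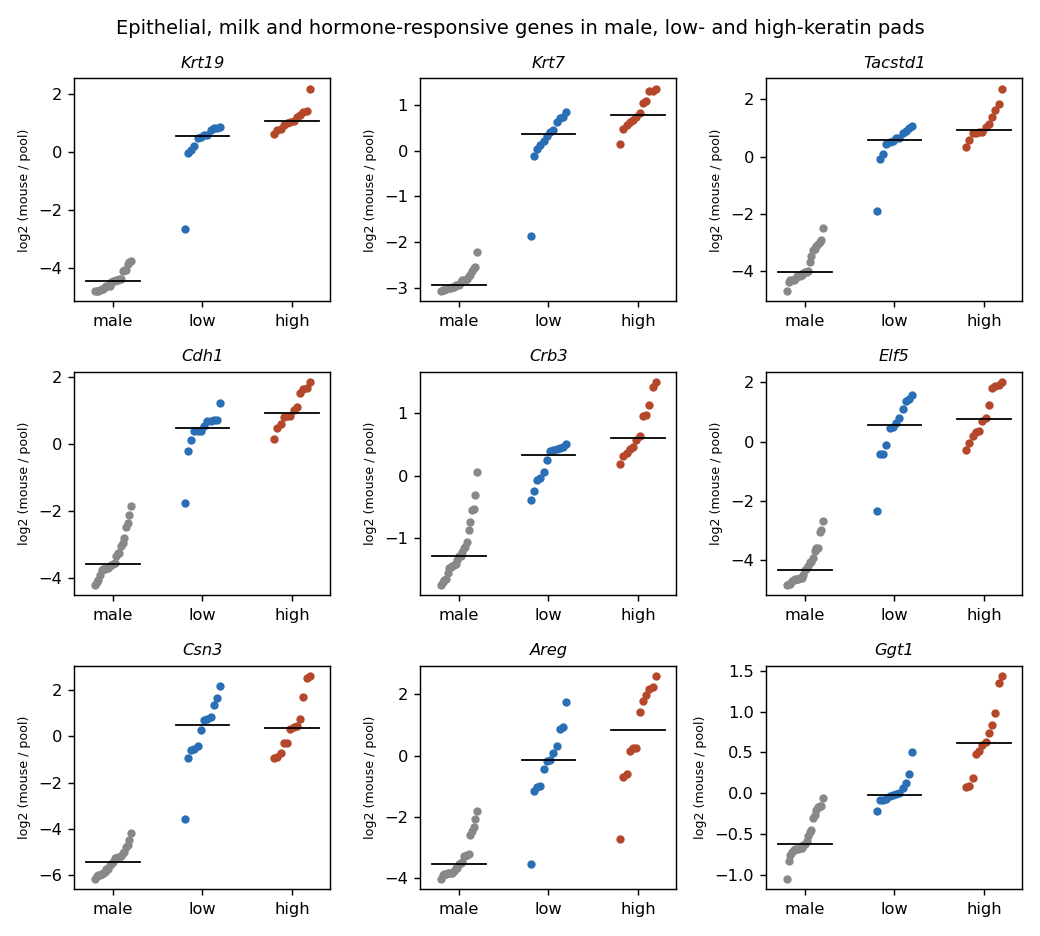
Levels (log2 ratio of mouse to pool) of 9 genes in 23 male, 12 low-keratin and 12 high-keratin pads, 1 point a pad, with a line at the median. High- and low-keratin females overlap in every panel, while for Krt19 all males (-4.80 to -3.75) lie below all females.

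Most milk genes were negative with and without the pad at -2.92, and the sign of single genes depended on it. Of 14 tested genes 5 were positive, the median was -0.20, and 0 were higher at the unadjusted threshold. Without that pad 1 was positive and 13 were negative, with a median of -0.28 and 0 past the unadjusted threshold. Csn3, κ-casein, which keeps milk micelles in solution, had a median of 0.35 (-0.95 to 2.60) in high-keratin and 0.49 (-3.59 to 2.19) in low-keratin pads. Its difference of 0.20 ± 0.53 was smaller than its error. Ltf, the iron-binding lactoferrin, had medians of 1.00 and 0.98 and a difference of 0.12 ± 0.39, which was -0.22 without the pad at -2.92. The 1 gene of the list past the unadjusted threshold was Adfp (Plin2), which coats lipid droplets in fat and milk alike and had a difference of -0.49 ± 0.17 (unadjusted p = 0.0098, adjusted p = 0.55, limma). Elf5, the transcription factor of secretory luminal cells, had medians of 0.76 and 0.56 and a difference of 0.32 ± 0.40, or 0.02 without the pad at -2.92.

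Basal and myoepithelial genes depended on the fit. Of 26 tested genes 19 were positive, with a median of 0.05, and without the pad at -2.92 12 were positive, with a median of -0.01. Lgr5, a receptor for R-spondins, was the 1 member past the unadjusted threshold, at 0.32 ± 0.10 (adjusted p = 0.46, limma). The basal keratins Krt14 and Krt5 had differences of -0.03 ± 0.28 and 0.05 ± 0.32. The 12 contractile smooth muscle genes had a median of 0.08, with 10 positive.

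Hormone receptors and hormone-responsive genes were mostly positive, with 18 of 21 and a median of 0.22. Prlr, the prolactin receptor, had levels of 0.70, 1.21 and 1.90 (lowest, median, highest) in high-keratin pads and -1.21, 0.69 and 1.32 in low-keratin pads. The difference was 0.72 ± 0.19 (unadjusted p = 0.0013, adjusted p = 0.42, limma). Wnt4, which progesterone induces, had a difference of 0.50 ± 0.18 and was the other of 2 members past the unadjusted threshold. At that threshold 0.831% of all probes were higher. Without the pad with the lowest keratin score, 16 of 21 genes of the list were positive, with a median of 0.22, and 1 passed upward. Areg, the growth factor through which estrogen drives ducts to grow, had a median of 0.84 in high- and -0.15 in low-keratin pads, but it ranged from -2.71 to 2.60 and from -3.52 to 1.76. Its difference of 1.32 ± 0.58 did not pass either threshold. The cell-cycle gene Ccnd1 (0.52 ± 0.21) and the transcription factor Tbx3 (0.40 ± 0.17) also missed both.

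Markers of other tissues that a pad can hold are given beside these differences. All 24 lymphocyte genes tested were negative, with a median of -0.47, and 0 passed the unadjusted threshold. Their level, taken as the median over the genes of the list, was -2.53 to 0.80 in high- and -2.35 to 0.73 in low-keratin pads. All 18 skeletal muscle genes were negative, with a median of -0.39, but without the pad at -2.92, which had a muscle level of 1.62, 11 were positive and the median was 0.04. The muscle level was -3.55 to 2.05 in high- and -3.42 to 1.62 in low-keratin pads. Of 13 skin genes 11 were negative (median -0.40), and the skin level was -1.28 to 1.35 and -1.59 to 2.62. Of 15 macrophage genes 13 were negative (median -0.18, and -0.30 without the pad at -2.92), as were 11 of 12 endothelial genes (median -0.12) and 4 of 7 plasma cell genes (median -0.06), while 11 of 18 fibroblast and matrix genes were positive (median 0.06). In each of these 4 lists 0 genes passed the unadjusted threshold. The part of these tissues in the differences between high- and low-keratin pads was not tested, but with the lymphocyte level as a further term 0 probes passed and 368 had an unadjusted p under 0.01, and with the muscle level added to it 0 and 341.

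Of 40 adipocyte genes 31 were negative, with a median of -0.07, and without the pad at -2.92 24 were negative, with a median of -0.04. Scd1, the desaturase that makes monounsaturated fatty acids, had levels of -0.56, 0.05 and 0.48 (lowest, median, highest) in high-keratin and 0.19, 0.80 and 1.11 in low-keratin pads. The difference was -0.54 ± 0.13 (unadjusted p = 0.00046, adjusted p = 0.37, limma), the 1 adipocyte gene past the unadjusted threshold. Agpat2, of triacylglycerol synthesis, and Lpl, lipoprotein lipase, had -0.47 ± 0.18 and -0.33 ± 0.14. Adipoq, the adipokine adiponectin, and Fabp4, the fatty acid carrier of adipocytes, had -0.07 ± 0.20 and -0.04 ± 0.20. Brown and beige adipocyte genes had a median of -0.23 (2 of 10 positive; -0.10 without the pad at -2.92), and genes of retinoid handling, which includes the products of β-carotene cleavage, a median of -0.06 (5 of 14), with 0 past the unadjusted threshold in either list.

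All 19 cell proliferation genes were positive, with a median of 0.20, or 0.18 without the pad at -2.92. Mcm6, a subunit of the replicative helicase, was the 1 member past the unadjusted threshold, at 0.56 ± 0.19 (adjusted p = 0.55, limma). Of all probes 0.831% were higher at that threshold, and 0 of 19 genes passed it without the pad at -2.92.

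**Figure D3:**
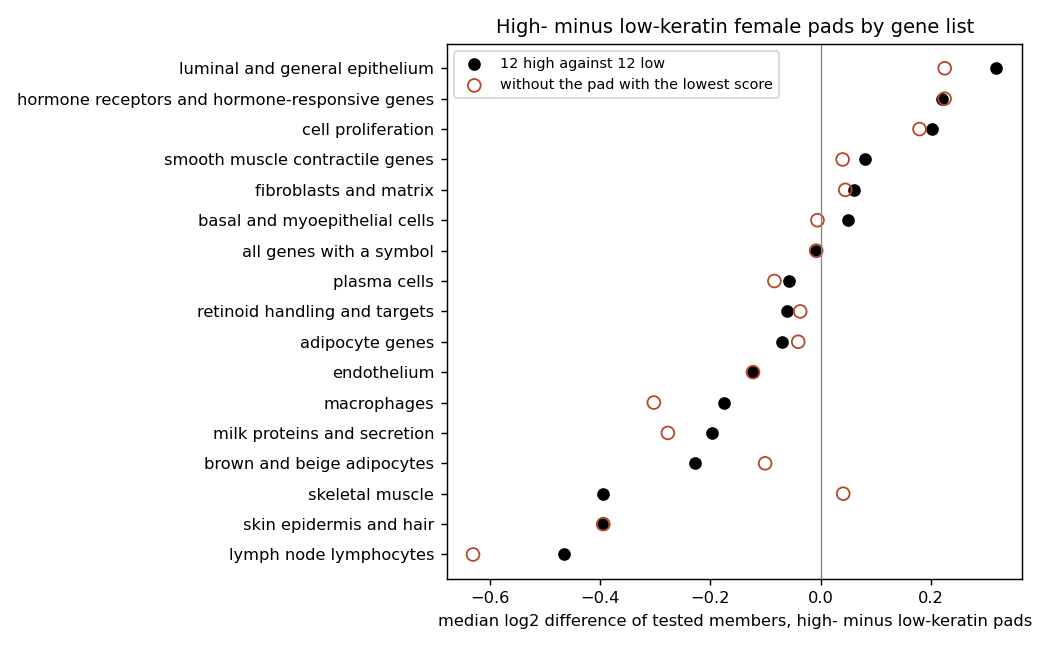
Median difference (log2, high- minus low-keratin pads) over the tested genes of each list, for all 24 females (black) and without the pad at -2.92 (open). Luminal and hormone-responsive genes lie to the right in both, and milk genes to the left in both. The basal median moves from 0.05 to -0.01, and the skeletal muscle median from -0.39 to 0.04.

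Among all probes, the smallest p-values belonged to genes outside these lists, which were named after their values were seen. 9430028L06Rik, a transcript known by its clone name, had a median of 0.92 (0.27 to 1.41) in high- and 0.17 (-0.27 to 0.70) in low-keratin pads, a difference of 0.79 ± 0.14. Alx4, a homeobox gene of mesenchyme, had 0.85 (0.42 to 2.00) and 0.18 (-0.84 to 0.52), a difference of 1.00 ± 0.21. Ggt1, γ-glutamyltransferase of glutathione breakdown, had 0.61 (0.07 to 1.44) and -0.02 (-0.22 to 0.50), a difference of 0.69 ± 0.15. Their adjusted p-values were 0.19, 0.28 and 0.34 (limma), and the classes overlapped in each.

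The score was then used as a continuous term in place of the split, which gave 534 called probes (2.57%), 374 higher (1.80%) and 160 lower (0.769%) with rising keratin (limma, adjusted p under 0.05). Of 61 luminal genes 25 were among those that rose. This count rested on the pad at -2.92, without which 58 probes (0.279%) passed, 49 higher and 9 lower (0.0433%). It was 838 without WT control 2 and 309 without Bcmo1-null control 6. The slopes below are those of the 23 other females, in log2 units of a gene per log2 unit of keratin.

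In the 23 females, 6 of 61 luminal genes rose with the keratin score and 0 fell, where 0.235% of all probes rose. They were Crb3 (0.76 ± 0.12, adjusted p = 0.0065, limma), Krt19 (0.82 ± 0.14), Krt7 (0.72 ± 0.13), Rbm35b (0.90 ± 0.16), the homeobox gene Msx2 (0.88 ± 0.18) and Ap1m2, the epithelial sorting adaptor (0.73 ± 0.15). The median slope over all 61 was 0.53, with 56 positive, beside 49.7% positive over all genes. In the same fit all 24 lymphocyte genes had negative slopes, with a median of -1.17 and 0 past either threshold. Cdh1 (0.78 ± 0.18) and Tacstd1 (0.76 ± 0.18) had adjusted p-values of 0.056 and 0.059. With the lymphocyte level as a further term, 18 probes passed, and of these 6 genes Crb3 and Krt19 kept an adjusted p under 0.05.

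Outside the luminal list, Itgb6, the epithelial integrin, was the 1 basal gene that rose (0.71 ± 0.14). Of genes named after their values were seen, Ggt1 (0.93 ± 0.12, adjusted p = 0.00085, limma), Alx4 (1.26 ± 0.20), 9430028L06Rik (0.92 ± 0.14), Nxph3, a secreted neurexophilin (1.48 ± 0.24), and Snai1, a repressor of Cdh1 (0.55 ± 0.11), rose, and Gpnmb, a glycoprotein of macrophages and pigment cells, fell (-0.81 ± 0.13, adjusted p = 0.0065). No milk, hormone-responsive or adipocyte gene passed the adjusted threshold. Of 21 hormone-responsive genes 7 passed the unadjusted one upward (3.71% of all probes) and 0 downward. Their median slope was 0.35, with 19 positive, and without WT BC 5 4 of them passed upward (1.86% of all probes). Of 14 milk genes 7 had positive slopes (median 0.01), or 8 with the deposited log ratios (median 0.23), and of 26 basal genes 22 had positive slopes (median 0.24). At the unadjusted threshold 2 of the 14 milk genes fell and 0 rose, where 426 of 20808 probes fell. All 19 proliferation genes had positive slopes, with a median of 0.70, and 14 passed the unadjusted threshold, as did 3.71% of all probes in that direction, and 0 the adjusted one. WT BC 5, with the highest keratin score, also had the highest proliferation level, at 2.10, and without it 4 of 19 passed the unadjusted threshold (1.86% of all probes), with a median slope of 0.43. In those 22 females Crb3 was the 1 luminal gene past the adjusted threshold (0.72 ± 0.13, adjusted p = 0.049, limma; 0.024% of all probes higher), and 14 of 61 passed the unadjusted one.

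The count of 58 moved with single pads. Leaving out a further WT pad gave 14, 23, 24 and 95 (control 1, 2, 4 and 5) and 25, 10 and 8 (BC 3, 4 and 5). Leaving out a Bcmo1-null pad gave 124, 117 and 21 (control 3, 4 and 5) and 11, 364, 13 and 145 (BC 1, 4, 5 and 6). With slide as a random block it was 381, and with the deposited log ratios 14.

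**Figure D4:**
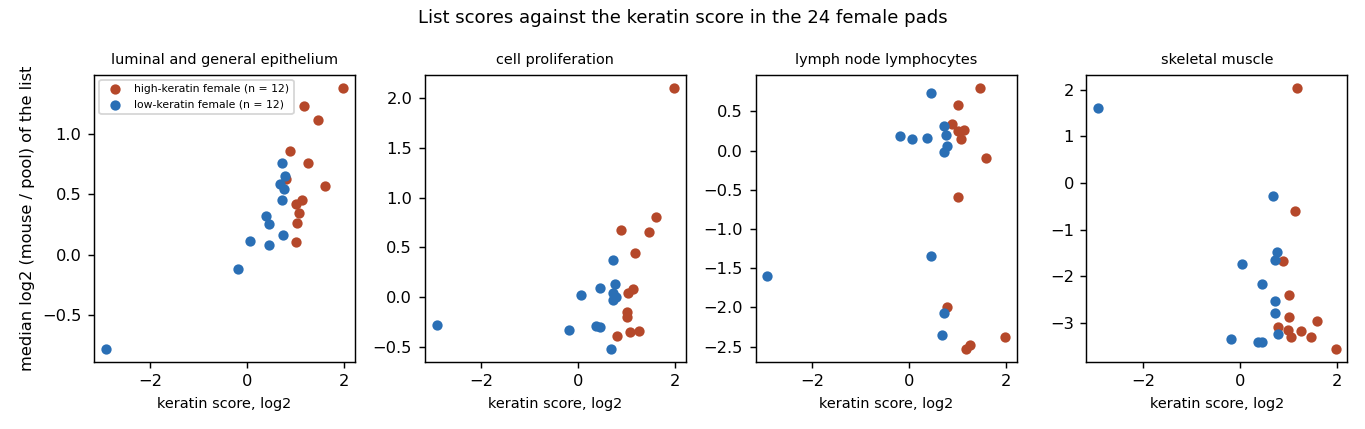
The median level (log2 ratio of mouse to pool) of the luminal, proliferation, lymphocyte and skeletal muscle lists against the keratin score, 1 point a female pad. The luminal level is lowest, at -0.78, and highest, at 1.39, in the pads with the lowest and highest scores, the proliferation level is highest, at 2.10, in the pad with the highest score, and the lymphocyte level spans -2.53 to 0.80 in high- and -2.35 to 0.73 in low-keratin pads.

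Over the 24 females the genes whose levels were most like the keratin score were Krt19 (Pearson r = 0.947), Krt7 (0.919), EG432995 (0.907), Galnt3 (0.89), Tacstd1 (0.887), Cd9 (0.883), Cdh1 (0.881), 1190003J15Rik (0.88), 4732474O15Rik (0.87) and Vil2 (0.868). The least like were 2810405K02Rik (-0.779), Abcd2 (-0.771), 2310031A18Rik (-0.77), Hdac9 (-0.764) and Akr1b3 (-0.748). The 24 values share their arrays with the score, and the pad at -2.92 raised many of them. Without it the r of Krt19 was 0.817 and that of Vil2 0.678, and Slc35b2 (0.873) was then the most like.

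The slides gave a partial check within a batch, as plain differences of class means without the genotype-diet term. Within slides the classes were not matched for genotype and diet, so that keratin class and group cannot be told apart there. On the slide with the pad at -2.92, all high-keratin pads were on the BC diet and all low-keratin pads on the control diet. On the 5 slides with both classes that did not hold the pad at -2.92, the luminal level of high- minus low-keratin pads was -0.11, 0.43, 0.04, -0.02 and 1.00, and on the slide that held it 1.31. The difference in Krt19 was positive on all 6, between 0.27 and 2.12, and that in Cdh1 on 5, with -0.20 on the other. Tacstd1 was negative on 1 slide (-0.02) and Crb3 on 2 (-0.15 and -0.07).

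The males, which the rule did not use, were examined for whether the same genes follow the keratins where these are lowest. The slope over 23 male pads gave 0 called probes of 20434 (0% called; limma) and 573 (2.80%) at the unadjusted threshold, 250 higher (1.22%) and 323 lower (1.58%), which became 249 higher and 1 lower after median centring. Of 47 luminal genes 17 were positive, with a median slope of -0.15, and 1 passed the unadjusted threshold in each direction. All 69 keratin spots of the males were well above background. The male score varied little, from -4.73 to -4.01, with a standard deviation of 0.19. That of high-keratin females was 0.33, and that of low-keratin females without the lowest pad 0.32. The score of WT male BC 5, -4.15, included a Krt18 spot at -3.46 that was set aside as non-uniform in the fits. Over so narrow a range the slopes cannot decide whether luminal genes follow the keratins in males. The 18 skeletal muscle genes all had positive slopes, with a median of 3.23 and 0 past either threshold.

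Low- and high-keratin females were then set against the males, a contrast in which keratin level and sex cannot be told apart and in which both classes share the same 23 male pads. In low-keratin females 5942 of 20715 probes differed from males (28.7%; 3200 higher, 15.4%, and 2742 lower, 13.2%; limma, adjusted p under 0.05). After median centring this was 3430, with 1502 higher and 1928 lower, and with the deposited log ratios 2881 were higher and 3710 lower. In high-keratin females 9982 probes differed (48.2%; 4859 higher, 23.5%, and 5123 lower, 24.7%).

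Low-keratin females still had most epithelial genes far above males. Of 60 luminal genes tested 54 were higher and 1 lower, with a median of 1.68, and in high-keratin females 56 were higher and 2 lower, with a median of 2.04. The filter used the mean signal of both sexes together, and in the male fit only 47 luminal genes passed it. For genes that passed through the females alone, a level above males was favoured by the filter itself. Elf3 and Marveld3, of the list, were well above background on no male array, so that only a bound can be given, of at least 2.68-fold and 2.66-fold in low-keratin females. Krt19 was 4.67 ± 0.20 above males in low- and 5.58 in high-keratin females. Csn3 was 5.55 ± 0.35 and 5.79, Elf5 4.60 ± 0.28 and 4.98, Tacstd1 4.18 ± 0.23 and 4.90, and Cdh1 3.68 ± 0.23 and 4.34. For these 5 genes all adjusted p-values were at most 4.8e-17 (limma). The pad at -2.92 had Krt19 at -2.64, above the highest male at -3.75, and Csn3 at -3.59, above the highest male at -4.18. Other epithelial genes of this pad lay within the male range, such as Ltf at -2.24 (highest male -2.06) and Crb3 at -0.39 (highest male 0.06). Its luminal level of -0.78 and milk level of -1.07 were above the male medians of -1.51 and -1.50. They were below the highest male levels, -0.53 and -0.61, both of the Bcmo1-null male on the control diet (replicate 2).

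Beside the counts that follow, 15.4% of all probes were higher and 13.2% lower than in males in low-keratin females. In high-keratin females these shares were 23.5% and 24.7%. Milk genes were higher than in males for 9 of 14 in both female classes, basal genes for 18 and 19 of 26, and hormone-responsive genes for 15 and 16 of 21. Of the milk genes only 10 passed the filter in the male fit. Areg was 2.98 ± 0.39 above males in low- and 4.15 in high-keratin females. Proliferation genes were higher for 1 of 19 in low- and for 17 of 19 in high-keratin females, with medians of 0.28 and 0.58. The difference between the female classes was tested in females alone, where 0 of 19 passed the adjusted threshold. In low-keratin females adipocyte genes were lower than in males for 18 of 40, above the share of all probes. For 7 they were higher, near that share. They were lower for 21 and higher for 2 in high-keratin females. Skeletal muscle genes were lower for 1 and 15 of 18, and no lymphocyte gene passed in either class.

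Because 5 of 6 WT females on the BC diet but only 2 of 6 on the control diet were high-keratin pads, the diet comparison was repeated with the split in the fit. In WT females, 1869 probes (8.98%) had an unadjusted p under 0.01 for BC minus control diet without the split and 1260 (6.06%; 336 higher, 1.61%, and 924 lower, 4.44%) with it, of which 1065 were shared, or 57.0% of the first and 84.5% of the second set. After adjustment 233 probes (1.12%) passed without the split and 4 (0.0192%) with it (limma). Among these were both probes of Gsta3, a glutathione transferase (-1.16 ± 0.19 and -0.94 ± 0.16), and 1700008G05Rik (-0.81 ± 0.13), named after their values were seen. Without the pad at -2.92 the count with the split was 388, with 115 higher and 273 lower. With the continuous keratin score in place of the split the counts were 1423 and 107. After median centring the fit with the split gave 83 higher and 1601 lower at the unadjusted threshold. The adjusted count of that fit was 587 after median centring, 5 higher and 582 lower. It was 0 without background correction, with the deposited log ratios and without the filter.

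At the unadjusted threshold 12 of 40 adipocyte genes were lower on the BC diet in WT females without the split (6.65% of all probes) and 8 with it. In the same contrast the median difference of skeletal muscle genes was 0.77 without and 0.93 with the split, that of lymphocyte genes 0.55 and 0.82 and that of macrophage genes 0.29 and 0.36, with 0 of these genes past the unadjusted threshold. The part of these tissues in the diet differences was not tested. Lep, the hormone leptin, had a diet difference of -1.29 ± 0.36 without the split and -1.35 ± 0.39 with it (unadjusted p = 0.0015 and 0.0025, limma). Pparg, the master transcription factor of adipocytes, had -0.45 ± 0.16 and -0.50 ± 0.18, and Fabp5, a fatty acid carrier, -1.10 ± 0.22 and -0.98 ± 0.23. Of 19 proliferation genes 6 were higher on the BC diet without the split (2.34% of all probes) and 0 with it, with medians of 0.69 and 0.54. For luminal genes the median diet difference was 0.22 without the split and 0.06 with it, and that of Krt19 was 0.56 ± 0.46 and 0.13 ± 0.44.

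In Bcmo1-null females, 74 probes (0.356%) had an unadjusted p under 0.01 for the diet without the split and 73 (0.351%) with it, and 0 passed after adjustment in either fit. The difference between high- and low-keratin pads was also compared between conditions. Its interaction with genotype gave 0 called probes (77 at an unadjusted p under 0.01, 0.370%) and that with diet 0 (74, 0.356%; limma). Without the pad at -2.92 the unadjusted counts were 50 and 121, and after median centring 153 and 42. WT females on the BC diet contributed a single low-keratin pad to both tests.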

How the data were processed

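RNA of the inguinal adipose tissue of 47 mice was hybridized by the authors, in Cy5 against a Cy3-labeled pool of all samples and without dye swaps, to Agilent 4x44k arrays on 12 slides. Per the file headers, Feature Extraction 9.5.3.1 gave the deposited signal intensity and local background of each spot, its flags, and the deposited log10 ratio of processed Cy5 to Cy3, which served for the keratin score (converted to log2). Here, R 4.3.3 and limma 3.58.1 were used. Median signals were corrected with normexp (offset 50), loess-normalized within arrays and averaged per probe. A probe entered a fit if its mean signal in both channels reached 2 times the mean local background over the arrays fitted: 20811 of 41174 for the female fits, 20437 for the male fit and 20718 for the fit of both sexes. Spots flagged as non-uniform (4872 over all arrays) were set aside. The number of arrays sets the precision. Effects were fitted with lmFit and eBayes with the 4 genotype-diet groups as covariate, and p-values were adjusted by Benjamini-Hochberg over all probes fitted, of which those of Krt8 and Krt18 are left out of every count. A gene is given by its brightest kept probe. The split and the 16 gene lists were chosen with earlier results of these data known. Genes were named from the luminal, milk, basal and hormone lists, the 5 smallest p-values of each other list, the 10 most and 5 least similar to the keratin score, and Krt8, Krt18, Bcmo1, Bcdo2, Pparg and Lep; others are said to be chosen after their values were seen. The fit was tested on simulated data. The alternatives were other background corrections and scalings, other filters, slide and replicate number as blocks, other splits, tissue levels as terms and leaving out each pad.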

Additional observations from a re-analysis of the deposited data

Results flagged for a closer look

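The keratin score and the luminal level were examined for samples far from their group in each of the 8 groups, 16 tests in all, of which chance flags about 1 in 20. The pad of a Bcmo1-null female on the control diet (replicate 1) had a keratin score of -2.92 against 0.72 for the nearest of 6 pads, a gap of 0.923 of the group's range. The pad of a WT male on the BC diet (replicate 5) had -4.15 against -4.63 for the nearest of 5, a gap of 0.834 of the range. Its Krt18 spot, at -3.46 where the other pads of the group had -4.70 to -4.58, was among the spots set aside as non-uniform in the fits, and its Krt8 spots had -5.07 and -3.92.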

How the results depend on the processing

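The count of 0 probes between high- and low-keratin pads stayed at 0 under the other background correction, scalings, filters, splits, blocks and tissue terms, and was 0 to 1 when each pad was left out in turn, the 1 (9430028L06Rik, 0.81) arising without WT BC 3. It was 534 with the continuous score. Chosen after seeing the data, the continuous score without the pad at -2.92 gave 58, with the lymphocyte level 18, with slide as a random block 381, without background correction 20, with the deposited log ratios 14 and after median centring 43. The count of low-keratin females against males was 3430 after median centring. The diet effect in Bcmo1-null females (73 at the unadjusted threshold) was 163 without the filter, 144 with slide as a random block, 177 with the keratin score, 199 with the keratin and lymphocyte scores and 136 without the pad at -2.92. Ltf turned to -0.22 and Csn3 to -0.13 without that pad, and Csn3 to -0.16 without Bcmo1-null BC 1, with highest values of 0.24 for Ltf (without Bcmo1-null BC 4) and 0.52 for Csn3 (without WT control 4). Ltf was -0.62 in the continuous fit without it, and there -0.55 with the lymphocyte level, -0.77 with slide, -0.63 without background correction, -0.67 with the deposited log ratios and -0.59 after median centring. The cause of these changes was not tested.

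With the replicate number as a block, 0 probes passed between high- and low-keratin pads (391 at an unadjusted p under 0.01), Ltf was -0.049, and the diet effect in Bcmo1-null females had 187 probes at the unadjusted threshold. The deviations of same-numbered females from their group means correlated between -0.46 and 0.61 (median 0.14, 36 pairs), and those of other females between -0.60 and 0.59 (median -0.01, 180 pairs). Since not every same-numbered pair correlated positively and no label gives the numbers a meaning, they were not taken as pairing. At the unadjusted threshold the block moved the male slope from 573 to 175, the interaction with genotype from 77 to 131 and that with diet from 74 to 42, and the adjusted WT diet count with the split from 4 to 0. The other counts of called probes stayed within 1.5 times.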
